A study of Homo sapiens with 9 samples.

Results

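Gene expression was compared between THP-1 cells carrying the second of 2 short hairpin RNAs against RASSF2 (shRASSF2-2) and THP-1 cells carrying a control hairpin (shCTRL). THP-1 is a human acute monocytic leukemia cell line that carries a KMT2A fusion and can take on macrophage features. The study measured poly(A) RNA by sequencing in 9 libraries, 3 from each of 3 groups; the 6 libraries of the second hairpin and the control make up this comparison, and the 3 libraries of the first hairpin (shRASSF2-1) serve as a further reference. Every group, the control included, had been transduced with lentivirus and kept for 96 h in puromycin at 1 ug/mL, which selects cells that took up a hairpin construct. Members were all genes with a normalized read count of at least 10 in at least 3 of the 6 libraries, which held for 14894 of the 18522 genes in the deposited table. Of these, 355 reached that minimum only in hairpin libraries and 147 only in control libraries, so a difference at those genes was built into their selection. Just inside the rule, 708 genes reached 10 in exactly 3 libraries, with a median over genes of their mean value of 12.3, and just outside it 476 reached 10 in exactly 2, with a median of 8.23. Nothing in the labels tells whether replicate libraries were separate cultures; p-values therefore describe the spread among these libraries alone, and that spread may be technical.

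RASSF2 belongs to the Ras association domain family, and carries a SARAH domain that binds the Hippo pathway kinases MST1 and MST2. Macrophage differentiation of a monocytic leukemia cell is known to bring scavenger and complement receptors, lysosomal enzymes and exit from the cell cycle, with loss of progenitor granule proteins. Type I interferon acts through the receptor chains IFNAR1 and IFNAR2 and the kinases JAK1 and TYK2 to form a complex that holds STAT2 and IRF9 and binds the interferon-stimulated response element (ISRE) of antiviral genes. Exit from the cell cycle is governed by CDK inhibitors and by pocket proteins, which repress E2F targets and, within the DREAM complex, the genes of mitosis.

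The libraries held 13.9, 20.1 and 17.0 M reads in the controls and 14.5, 14.8 and 15.2 M with the second hairpin. The first principal component, with 81.7% of the variance, separated the groups, and the second, with 10.96%, separated control replicate 1 from the other controls. Controls 1 and 2 were run on a flow cell of their own, while control 3 shared another with all hairpin libraries. Transcripts of the mitochondrial chromosome made up 5.86% to 7.45% of control reads and 2.61% to 3.61% of reads with the second hairpin, and the part of this difference in the results was not tested. No source used here states whether reads were counted by strand, so overlapping and antisense genes, and near-identical paralogs such as FCGR1A and FCGR1B, are uncertain.

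RASSF2 itself (chromosome 20, 4780023 to 4823608 on GRCh38) stood at 1104, 1078 and 1010.4 normalized reads in the controls and at 331, 342 and 262 with the second hairpin. All 3 hairpin libraries lay below all 3 controls, and the mean was 29.3% of the control mean (log2 fold change -1.78 ± 0.13, limma adjusted p = 1.7e-05). Here and below, a fold change is the difference of group means of log2(value + 1) with its standard error over 3 libraries a group, and a gene was called at a Benjamini-Hochberg adjusted p under 0.05 over all 14894 genes. The first hairpin brought RASSF2 to 134, 198 and 159, or 15.4% of the control mean, so the second hairpin left more RASSF2 RNA than the first (log2 difference 0.93, limma adjusted p = 4.3e-04). Of 15 tested genes of the RASSF family and its kinase partners, 6 rose (40%) and 3 fell (20%), beside 29.7% and 27.3% of all genes tested, with a median log2 fold change of 0.29 beside 0.04 over all genes. In this list edgeR and DESeq2 each called 4 higher and 3 lower. STK4, which encodes MST1, rose (log2 fold change 0.82 ± 0.11, limma adjusted p = 4.5e-04), while STK3, which encodes MST2, was not called (log2 fold change 0.31 ± 0.26, limma adjusted p = 0.34). RASSF3 rose from 507, 485 and 422 to 1228, 1281 and 1265, and LATS2, the kinase that acts below MST1 and MST2, rose from 254, 237 and 218 to 696, 694 and 731. RASSF1 fell from 855, 1103 and 1319 to 486, 491 and 464. Without control replicate 1, 8 genes of this list rose and 5 fell.

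The second hairpin came with a widespread difference: limma called 8484 of 14894 genes (57%), of which 4418 (29.7%) rose and 4066 (27.3%) fell. By at least 2-fold, 2503 genes rose (16.8%) and 2027 fell (13.6%). The 3 hairpin libraries lay above all controls at 5164 genes (34.7%) and below all controls at 4652 (31.2%). A count of members is therefore read below against a background of 29.7% higher and 27.3% lower. Because the RNA came from bulk cultures, fewer cells of a type and less RNA per cell cannot be told apart.

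The 10 highest fold changes, taken over called genes whose mean over the 6 libraries reached 100, included those of C1QA, ADAMDEC1, GBP1, RGS1, ZBP1, RASGEF1B, TNFSF18, SLC26A11 and EDNRB. ADAMDEC1, a secreted metalloprotease made by differentiating macrophages, went from 9.68, 27.4 and 24.4 to 11142, 11089 and 12778 (log2 fold change 9.20 ± 0.34, limma adjusted p = 1.0e-06). ZBP1, a sensor of Z-form nucleic acid that interferon induces, went from 0, 1.66 and 11.2 to 704, 574 and 801 (log2 fold change 7.75 ± 0.79, limma adjusted p = 9.3e-05). EDNRB, an endothelin receptor, stood at 42.3, 19.9 and 24.4 in the controls and 4244, 3713 and 4512 with the hairpin. Each of these genes was close to absent in the controls and plainly present in every hairpin library. TNFSF18, a ligand of the TNF superfamily, had only 3 reads over the 3 controls against 706 over the hairpin libraries, a ratio of 273 with a 95% counting interval of 92.9 to 1326; this interval covers counting error only. TNFSF18, RGS1 and RASGEF1B reached the minimum for testing only in hairpin libraries.

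The 10 lowest were SERPINB2, MS4A3, TERT, WNT7B, PPP1R27, LINC01140, TGM5, VAT1L, MLC1 and GIHCG. MS4A3, a marker of granulocyte and monocyte progenitors, fell from 1919.6, 1887 and 1586 to 21.5, 24.96 and 14.3 (log2 fold change -6.43 ± 0.21, limma adjusted p = 7.2e-07). TERT, the catalytic subunit of telomerase, fell from 214, 199 and 207 to 3.40, 1.13 and 1.10 (log2 fold change -6.26 ± 0.36, limma adjusted p = 6.3e-06). SERPINB2, a plasminogen activator inhibitor of monocytes, stood at 494, 1499.7 and 1773 in the controls, with replicate 1 well below the other controls, and at 7.94, 4.54 and 18.7 with the hairpin. At all 3 genes the groups did not overlap. TERT and LINC01140 reached the minimum only in controls.

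Surface receptors of monocytes and macrophages were mostly higher with the second hairpin. Of 30 tested, 23 rose and 3 fell, with a median log2 fold change of 1.84. CD14, the lipopolysaccharide co-receptor, stood at 14.5, 17.4 and 36.6 in the controls and 460.3, 331 and 408 with the hairpin (log2 fold change 4.17 ± 0.34, limma adjusted p = 2.7e-05). CSF1R, the receptor for the macrophage growth factor, went from 3147, 2256 and 2098 to 9999.6, 9818 and 10088 (log2 fold change 2.02 ± 0.15, limma adjusted p = 2.0e-05). ITGAM, the CD11b integrin chain, went from 507, 516 and 515 to 1492, 1552 and 1503 (log2 fold change 1.56 ± 0.09, limma adjusted p = 5.2e-06). At all 3 receptors the groups were apart, and the libraries within a group varied little by comparison. The costimulatory ligands CD80 and CD86 rose by 5.50 and 6.12 on the log2 scale, TLR4 by 2.53 and ADGRE1 by 3.85. The 3 that fell were CCR2, the chemokine receptor of circulating monocytes (log2 fold change -1.77 ± 0.12, limma adjusted p = 1.4e-05), TLR2 and CD33. FCGR1A, the high-affinity Fc receptor, stood at 1777, 2270.3 and 2423 and 2147, 2190.0 and 2308, with overlapping groups, and was not called (log2 fold change 0.05 ± 0.13, limma adjusted p = 0.76).

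**Figure D1:**
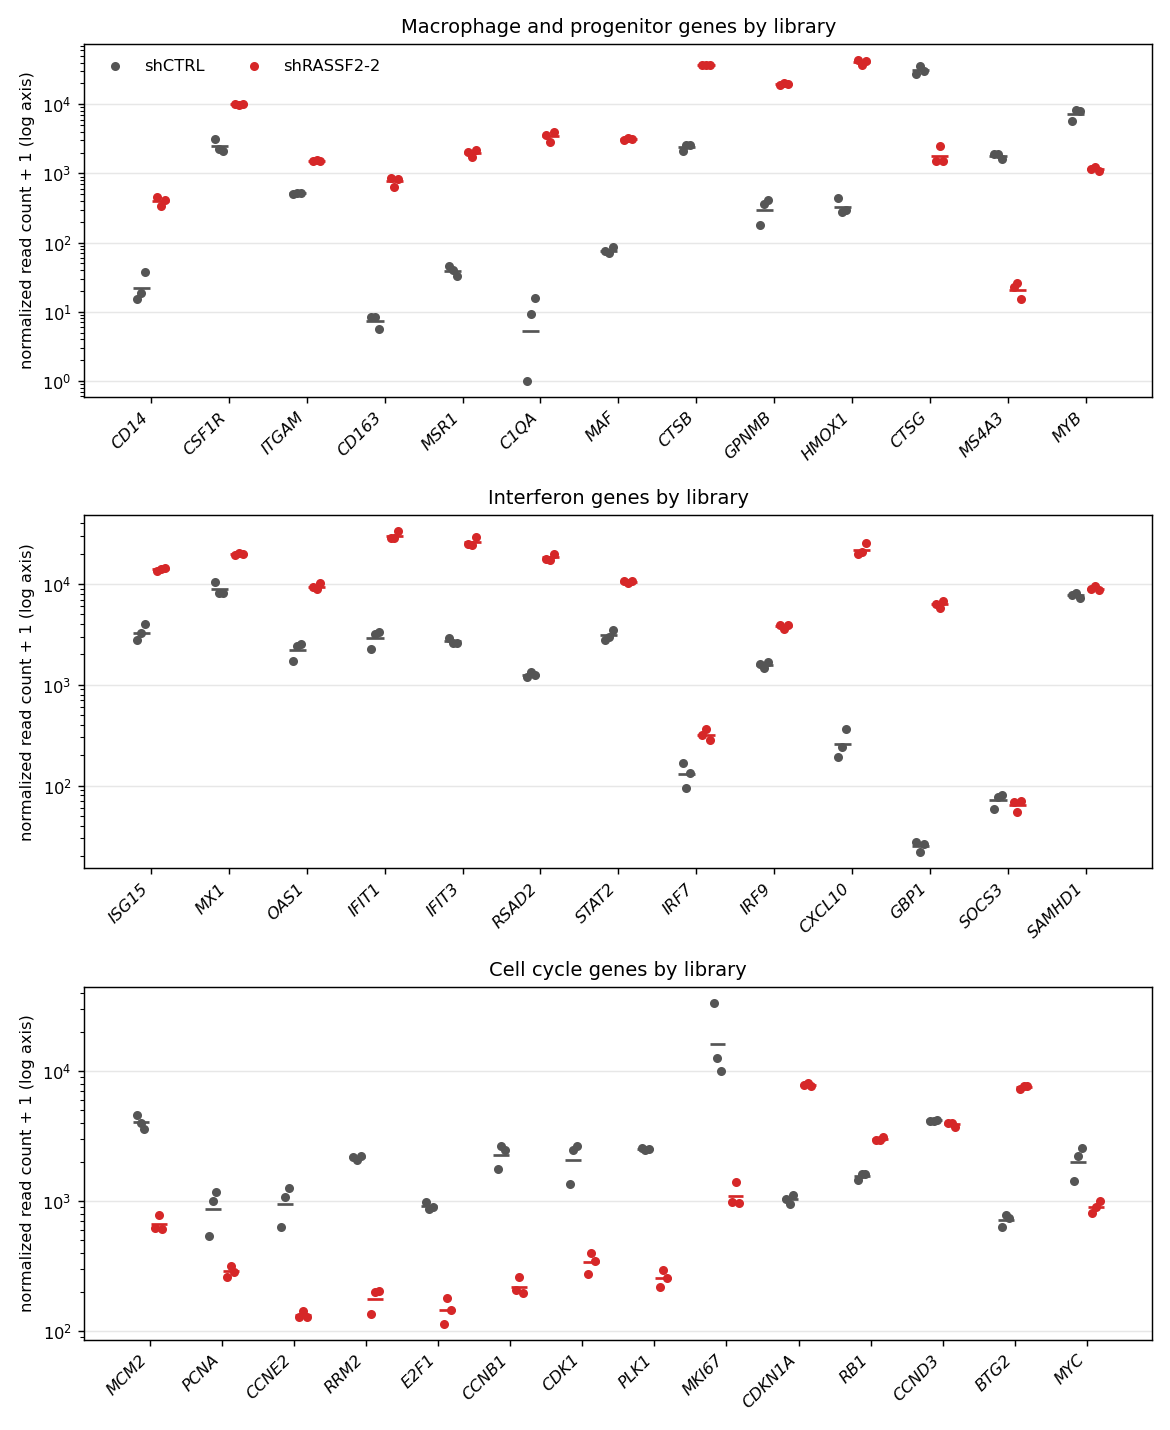
Normalized read counts plus 1 (log axis) of macrophage and progenitor genes (top), interferon genes (middle) and cell cycle genes (bottom), with a point per library (grey shCTRL, red shRASSF2-2) and a bar at the mean on the log scale. CD163 and C1QA go from under 20 in every control to over 600 in every hairpin library, while SAMHD1, SOCS3 and CCND3 show little or no separation and MKI67 is far higher in control replicate 1 than in the others.

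Scavenger and lectin receptors, with which macrophages take up lipoproteins, debris and sugars, followed the same direction. Of 24 tested, 20 rose and 2 fell, MARCO and SCARB1, with a median of 2.40. CD163, the haemoglobin scavenger receptor, went from 7.26, 7.47 and 4.69 to 869.6, 629.8 and 829 (log2 fold change 6.71 ± 0.24, limma adjusted p = 9.1e-07). MSR1, the class A scavenger receptor, went from 44.8, 39.03 and 31.9 to 2007, 1716 and 2193 (log2 fold change 5.65 ± 0.17, limma adjusted p = 5.9e-07). CD36, which takes up oxidized lipoprotein, went from 837, 1212 and 1128 to 10046, 9874 and 10263. None of these groups overlapped. CLEC7A, the beta-glucan receptor, rose by 6.85, MERTK, a receptor for apoptotic cells, by 3.92, and CD209, a lectin of dendritic cells and macrophages, by 2.66. TREM2, a lipid-sensing receptor, rose from 1640.2, 1936 and 2034 to 3899, 4001 and 4031, and TYROBP, its signalling partner, from 1120.1, 2100.1 and 2259.8 to 10513, 10823 and 11254. MRC1, the mannose receptor of alternatively activated macrophages, did not reach the minimum for testing and stood at 0, 4.15 and 3.75 and 12.5, 10.2 and 9.89. STAB1 rose (log2 fold change 4.38 ± 0.99, limma adjusted p = 0.0062), but with flow cell as a term it was not called (log2 fold change 2.17, limma adjusted p = 0.091). Of the 20 that rose, CD163, CLEC10A and a further tested receptor, OLR1, reached the minimum only in hairpin libraries.

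Complement genes included C1QA, the gene with the highest fold change of those just named. Of 15 tested, 12 rose and 0 fell by limma (1 at an unadjusted p under 0.05, 0 by edgeR and 0 by DESeq2), with a median of 2.68. The 1 gene was called lower when hairpin replicate 1 was left out. C1QA, a chain of the C1q recognition molecule that macrophages secrete, stood at 0, 8.30 and 15.00 in the controls and 3567, 2861 and 3896 with the hairpin (log2 fold change 9.33 ± 0.89, limma adjusted p = 6.8e-05). C1QC went from 3.63, 2.49 and 19.7 to 702, 566 and 731 (log2 fold change 6.58 ± 0.60, limma adjusted p = 5.4e-05). C1QB remained low, at 0, 0 and 10.3 and 44.2, 37.4 and 54.9 (log2 fold change 4.36 ± 0.92, limma adjusted p = 0.0044). In each of the 3 C1q genes control replicate 3, the control that shared the hairpin libraries' flow cell, was the highest control, and with flow cell as a term the log2 fold changes were 7.74 for C1QA and 2.02 for C1QB. The anaphylatoxin receptors C5AR1 and C3AR1 rose by 6.44 and 2.24, and the regulator SERPING1 by 5.75. C3, the central component, rose from 618, 723 and 820.1 to 2579, 2958 and 2578.

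Lysosomal genes rose almost without exception: 36 of 37 tested rose and 0 fell, with a median of 1.89, and GUSB was not called. None fell at an unadjusted p under 0.05 in limma, and edgeR and DESeq2 gave 36 and 0 as well. CTSB, a cathepsin, went from 2074, 2585 and 2595 to 36350.0, 36218 and 36258 (log2 fold change 3.91 ± 0.11, limma adjusted p = 5.9e-07). CTSD, another cathepsin, went from 3157, 3102 and 3113 to 43430.0, 42921 and 42477 (log2 fold change 3.78 ± 0.09, limma adjusted p = 3.3e-07). GPNMB, a glycoprotein of lysosome-rich macrophages, went from 175, 356 and 416 to 18741, 20220.0 and 19657 (log2 fold change 6.04 ± 0.29, limma adjusted p = 2.7e-06). The hairpin libraries of each gene were close to each other and far from the controls. LGMN, which encodes legumain, rose by 6.91, CTSL by 3.02, CTSS by 3.26, GRN by 2.91, and LAMP1, a membrane protein of all lysosomes, by 1.13. ATP6V0D2, a proton pump subunit of osteoclasts and macrophages, went from 0, 1.66 and 1.87 to 319.7, 249 and 281 and reached the minimum only in hairpin libraries.

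Many lysosomal genes are known targets of the factor TFEB through the CLEAR element. The letters TCACGTGA, which read the same on both strands, were found in 5 of the 23 tested lysosomal genes that have a RefSeq promoter (21.7%), against 1.83% of the 11564 tested genes with one. They were in 2.67% of genes that rose, 1.27% of genes that fell and 1.62% of genes not called. A promoter here is the stretch from 250 bases before to 50 bases after the start in RefSeq on GRCh38.p14, and a match is a description of the letters, not of binding. A pair of these promoters is shown because both genes rose, LAMP1 by 1.13 and ATP6V0D1, a shared proton pump subunit, by 1.25; 70 bases around the match are given in the direction of the gene, with the match in capitals. LAMP1 lies at chr13:113297169-113297238 on the plus strand and ATP6V0D1 at chr16:67481178-67481247 on the minus strand.
LAMP1: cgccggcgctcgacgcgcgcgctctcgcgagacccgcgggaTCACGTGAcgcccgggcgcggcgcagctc
ATP6V0D1: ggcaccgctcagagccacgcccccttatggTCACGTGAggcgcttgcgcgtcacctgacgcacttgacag

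Genes of macrophage lipid handling gave 12 higher and 3 lower of 17 tested, with a median of 1.47. HMOX1, counted in this list although its enzyme degrades heme and not lipid, went from 439, 273 and 292 to 43441, 36295 and 42389 (log2 fold change 6.95 ± 0.18, limma adjusted p = 3.5e-07). LPL, lipoprotein lipase, went from 546, 722 and 733 to 6789, 8442 and 6535 (log2 fold change 3.44 ± 0.15, limma adjusted p = 2.1e-06). APOE, the apolipoprotein that macrophages secrete, went from 37.5, 53.98 and 95.6 to 967, 1059 and 1121 (log2 fold change 4.15 ± 0.30, limma adjusted p = 1.7e-05). At all 3 the groups were far apart. The fatty acid binding proteins FABP4 and FABP5 rose by 5.23 and 1.68. The cholesterol exporters ABCA1 (log2 fold change 0.48 ± 0.15, limma adjusted p = 0.028) and ABCG1 (log2 fold change 1.26 ± 0.44, limma adjusted p = 0.038) rose less, and neither was called with flow cell as a term (limma adjusted p = 0.09 and 0.12). PLTP, MYLIP and ALOX5AP fell. Of the phagocyte oxidase, the enzyme behind the oxidative burst, 4 of 6 genes rose and 2 fell. CYBB, the catalytic subunit, went from 1083, 1146 and 956 to 10964, 11865 and 11114 (log2 fold change 3.42 ± 0.10, limma adjusted p = 5.9e-07). RAC2, a GTPase of the complex, fell slightly (log2 fold change -0.31 ± 0.10, limma adjusted p = 0.03) and was not called without hairpin replicate 2.

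Transcription factors of the macrophage lineage were less uniform, with 19 of 27 higher, 4 lower and a median of 0.91. MAF, known from mouse to restrain macrophage self-renewal, went from 73.8, 69.8 and 84.4 to 3017, 3203 and 3129.7 (log2 fold change 5.34 ± 0.11, limma adjusted p = 2.2e-07). SPI1, which encodes PU.1, rose modestly (log2 fold change 0.64 ± 0.10, limma adjusted p = 0.0012). PPARG, a lipid-activated receptor, rose from 150.0, 147 and 109.7 to 314, 347 and 347. EGR2 rose by 3.29, MITF, a factor of lysosomal genes and osteoclasts, by 3.13, and ATF3, a stress-response factor, by 4.92. IRF8, a factor of monocyte progenitors, fell from 7550.2, 9139 and 8899 to 1376, 1222 and 1235 (log2 fold change -2.73 ± 0.11, limma adjusted p = 1.5e-06), and EGR1 fell from 1934, 3931 and 3577 to 444, 492 and 464. CEBPA (log2 fold change -0.63 ± 0.13, limma adjusted p = 0.0032) fell and CEBPB (log2 fold change 0.91 ± 0.32, limma adjusted p = 0.041) rose, but neither was called with flow cell as a term (limma adjusted p = 0.054 and 0.5), and CEBPB was also not called in several other alternatives. KLF4, a monocyte factor, stood at 348, 430.1 and 455 and 399, 439 and 363 and was not called.

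Secreted products of macrophages gave 16 higher and 1 lower of 20 tested, with a median of 1.63. With flow cell as a term 11 rose and 1 fell, and 13 rose and 1 fell when any 1 hairpin library was left out. Of the 20 tested, 2 reached the minimum only in hairpin libraries. SPP1, which encodes osteopontin, went from 20.6, 39.9 and 68.4 to 4661, 6297 and 4532 (log2 fold change 7.02 ± 0.38, limma adjusted p = 4.4e-06). CCL2, the monocyte chemoattractant, went from 44.8, 115 and 97.5 to 596, 628 and 814 (log2 fold change 3.07 ± 0.33, limma adjusted p = 1.4e-04). CXCL8, the neutrophil chemokine, went from 94.3, 184 and 145 to 363, 403 and 339.6 (log2 fold change 1.43 ± 0.24, limma adjusted p = 0.0013). These 3 were higher in every hairpin library than in any control. IL1B rose (log2 fold change 1.54 ± 0.30, limma adjusted p = 0.0029) and was not called with flow cell as a term (log2 fold change 1.03, limma adjusted p = 0.055). IL6 and IL10 did not reach the minimum, at 4.53, 4.54 and 3.30 and 21.5, 5.67 and 14.3 with the hairpin. CCL22, a chemokine of alternatively activated macrophages, fell from 158, 205 and 198 to 48.8, 77.2 and 51.6 (log2 fold change -1.67 ± 0.23, limma adjusted p = 4.6e-04). Of the tested genes of MHC class II and costimulation, 7 of 10 rose and 0 fell by limma, edgeR and DESeq2 (0 at an unadjusted p under 0.05), with a median of 1.57. CD74, the invariant chain, went from 1272, 2050.3 and 2178 to 5609, 5064 and 6476, and CIITA, the master regulator of class II, from 70.2, 44.01 and 40.3 to 105, 98.7 and 107. CD274 and PDCD1LG2, which encode the PD-1 ligands, rose by 4.82 and 5.21. HLA-DRA, HLA-DPA1 and several further class II genes are not analysed here.

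Granule proteins of myeloid progenitors went the other way: 12 of 17 tested fell and 1 rose, BPI, with a median of -1.76; with flow cell as a term 10 fell and 0 rose. CTSG, the serine protease cathepsin G, fell from 27467, 35305 and 30494 to 1486, 2461 and 1526 (log2 fold change -4.12 ± 0.20, limma adjusted p = 3.1e-06). MPO, myeloperoxidase, was low in the controls at 59.3, 55.6 and 50.6 and fell to 3.40, 3.40 and 5.49 (log2 fold change -3.48 ± 0.33, limma adjusted p = 6.8e-05); it reached the minimum only in controls, and BPI only in hairpin libraries. LYZ, lysozyme, counted in this list though not particular to progenitors, fell from 9530.2, 6279.5 and 5226 to 2618, 3271 and 2594 (log2 fold change -1.27 ± 0.22, limma adjusted p = 0.0014). ELANE, neutrophil elastase, stood at 335, 216 and 210.0 and 20.4, 20.4 and 138, with hairpin replicate 3 well above the other hairpin libraries; it was called lower (log2 fold change -2.64 ± 0.68, limma adjusted p = 0.012), but not with flow cell as a term (log2 fold change -2.40, limma adjusted p = 0.096). Of the 5 tested genes listed as neutrophil markers 4 fell, among them S100A8 (log2 fold change -1.62 ± 0.26, limma adjusted p = 0.0011), S100A9 (log2 fold change -1.54 ± 0.12, limma adjusted p = 2.0e-05) and CXCR2 (log2 fold change -1.92 ± 0.15, limma adjusted p = 2.5e-05). S100A8 and S100A9 are not particular to neutrophils, so their falls are not a loss of neutrophil genes alone.

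Regulators of progenitors and targets of KMT2A fusions were split, with 9 of 28 higher and 12 lower and a median of -0.39; with flow cell as a term the counts were 5 and 10, and without hairpin replicate 1 they were 5 and 12. MYB, a factor that leukemic progenitors depend on, fell from 5651, 8112 and 8037 to 1151, 1247 and 1066 (log2 fold change -2.64 ± 0.15, limma adjusted p = 6.3e-06). MYC fell from 1421, 2240.4 and 2583 to 806, 894 and 1008 (log2 fold change -1.17 ± 0.21, limma adjusted p = 0.0022). GFI1, a repressor of granulocyte progenitors, fell from 7292, 6929 and 7124 to 1095, 1494 and 1219 (log2 fold change -2.50 ± 0.12, limma adjusted p = 3.2e-06). KIT, FLT3 and BCL2 fell by 3.12, 1.80 and 2.04. Of the 7 HOXA genes of the list that were tested, limma and edgeR called 3 higher and 0 lower (0 lower at an unadjusted p under 0.05), and DESeq2 called 1 higher and 0 lower. HOXA6, at few reads, had the lowest fold change of them and was not called (log2 fold change -1.34 ± 0.59, limma adjusted p = 0.085). HOXA10 stood at 523, 477 and 633 and 497, 564 and 565, with a log2 fold change of 0.00 ± 0.13, and HOXA9 was higher (log2 fold change 0.83 ± 0.24, limma adjusted p = 0.02), although not with flow cell as a term (log2 fold change 0.89, limma adjusted p = 0.09). MEIS1 was near 0 in all 6 libraries.

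Interferon-induced antiviral genes were already expressed in the controls and rose further. Of 45 tested, 43 rose and 2 were not called, LY6E and SAMHD1, with a median log2 fold change of 1.74. None fell in limma, also at an unadjusted p under 0.05, or in edgeR and DESeq2, which called 42 higher; at 44 of the 45 every hairpin library lay above every control. ISG15, a ubiquitin-like protein, went from 2749, 3226 and 4020.1 to 13565, 14141 and 14339 (log2 fold change 2.09 ± 0.14, limma adjusted p = 1.2e-05). IFIT1, which binds viral RNA caps, went from 2288, 3174 and 3331 to 28863, 28611 and 33315 (log2 fold change 3.38 ± 0.16, limma adjusted p = 2.5e-06). RSAD2, which encodes viperin, went from 1194, 1343 and 1256 to 17731, 17499 and 19872 (log2 fold change 3.86 ± 0.10, limma adjusted p = 3.5e-07). The hairpin libraries of all 3 were within a narrow range and several-fold above the controls. MX1, a dynamin-like GTPase, rose less, from 10462, 8086 and 8166 to 19480.0, 20089 and 20046 (log2 fold change 1.17 ± 0.13, limma adjusted p = 1.3e-04). OAS1, OAS2 and OAS3, which make the activator of RNase L, rose by 2.10, 1.02 and 1.21, and IFIT3, IFI6, IFITM3 and LGALS3BP by 3.28, 3.25, 2.58 and 4.51. BST2, which encodes tetherin, stood at 1799, 4563 and 5231 in the controls, lowest in replicate 1, and at 10632, 11507 and 10453 with the hairpin; with flow cell as a term it was not called (log2 fold change 1.05, limma adjusted p = 0.09). IFI27 was likewise not called with that term (log2 fold change 3.21, limma adjusted p = 0.073).

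The ISRE letters GAAANNGAAA were searched on both strands, so that TTTCNNTTTC also counts. They were found in 24 of the 34 tested antiviral genes that have a RefSeq promoter (70.6%), against 337 of 11564 tested genes with one (2.91%) and 3.98% of the genes that rose. The promoters shown belong to genes of this list with fold changes given above; each stretch holds 70 bases in the direction of the gene, with matches in capitals, and matches of ISG15 overlap each other. They lie at chr1:1013360-1013429 on the plus strand for ISG15, chr10:89392490-89392559 on the plus strand for IFIT1, chr1:27672246-27672315 on the minus strand for IFI6, and chr17:78979942-78980011 on the minus strand for LGALS3BP.
ISG15: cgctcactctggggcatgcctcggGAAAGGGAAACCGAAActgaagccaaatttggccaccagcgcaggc
IFIT1: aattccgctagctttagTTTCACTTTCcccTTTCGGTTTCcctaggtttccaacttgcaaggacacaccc
IFI6: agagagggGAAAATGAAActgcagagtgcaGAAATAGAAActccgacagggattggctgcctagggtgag
LGALS3BP: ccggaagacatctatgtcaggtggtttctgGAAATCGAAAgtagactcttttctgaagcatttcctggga
In ISG15 and IFI6 the matches read on the strand of the gene, and in IFIT1 they read on the other strand.

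Of the genes that carry the interferon signal 17 of 21 rose and 0 fell by limma, edgeR and DESeq2 (0 at an unadjusted p under 0.05), with a median of 1.16. STAT2 went from 2790.5, 3006 and 3514 to 10696, 10234 and 10742 (log2 fold change 1.77 ± 0.11, limma adjusted p = 7.8e-06). IRF9 went from 1604, 1478 and 1685 to 3957, 3600.5 and 3895 (log2 fold change 1.26 ± 0.09, limma adjusted p = 1.8e-05). Both, parts of the complex that binds the ISRE, were thus higher in every hairpin library than in any control. IRF7, which amplifies interferon production, rose from 168, 93.00 and 133 to 319.7, 363 and 279, and IRF1 rose by 2.24. Among the receptors IFNAR1 and IFNAR2 rose by 0.79 and 1.16 and IFNGR1 by 2.63. Of the feedback inhibitors USP18 rose from 1638, 1106 and 1285 to 2579, 2355 and 2848, SOCS1 was called only in some of the alternatives (log2 fold change 0.85 ± 0.29, limma adjusted p = 0.038; log2 fold change 0.94, limma adjusted p = 0.13 with flow cell as a term), and SOCS3 was not called (log2 fold change -0.16 ± 0.22, limma adjusted p = 0.57). JAK1, IRF3 and ADAR were not called either. Without control replicate 1, 19 rose and 1 fell.

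Sensors of nucleic acid gave 14 higher and 1 lower of 18 tested, with a median of 1.56. IFIH1, which encodes MDA5, went from 2374, 2029 and 2091 to 9814, 9639.5 and 10769 (log2 fold change 2.22 ± 0.10, limma adjusted p = 2.4e-06), and DDX58, which encodes RIG-I, went from 1439, 1459 and 1574 to 6757, 6414 and 7466 (log2 fold change 2.20 ± 0.10, limma adjusted p = 2.0e-06). TLR3 and TLR7, endosomal sensors of RNA, rose by 4.68 and 4.18, AIM2, a sensor of cytosolic DNA, by 4.16, and IFI16 by 2.26. TMEM173, which encodes STING, fell from 3698, 3535 and 3799.8 to 984, 1003 and 1037 (log2 fold change -1.87 ± 0.08, limma adjusted p = 2.4e-06), with no overlap between groups. CGAS and MAVS were not called. IFNB1 was the only interferon gene of the list in the table; it did not reach the minimum and stood at 0, 4.98 and 9.37 in the controls and 6.80, 3.40 and 7.69 with the hairpin, a few reads in either group. Other interferon genes are not analysed here.

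Genes known to be induced by interferon gamma, among them chemokines, guanylate-binding proteins and enzymes of tryptophan, rose at 10 of 10 tested, with a median of 3.79. CXCL10, a T cell chemokine, went from 189.9, 242 and 366 to 19886, 20544 and 25485 (log2 fold change 6.41 ± 0.23, limma adjusted p = 9.1e-07). CXCL11 went from 48.4, 77.2 and 75.9 to 4225, 4006 and 5321 (log2 fold change 6.07 ± 0.20, limma adjusted p = 7.2e-07). GBP1, a guanylate-binding protein, went from 26.6, 20.8 and 25.3 to 6323, 5728 and 6789 (log2 fold change 7.96 ± 0.14, limma adjusted p = 2.0e-07). The controls were low at all 3 and the hairpin libraries stood together far above them. GBP2, GBP3, GBP4 and GBP5 rose by 4.43, 3.14, 2.52 and 1.05. IDO1, which degrades tryptophan, went from 0, 2.49 and 0.937 to 44.2, 56.7 and 41.8 and reached the minimum only in hairpin libraries. Of MHC class I and peptide loading, 8 of 13 rose and 0 fell by limma, edgeR and DESeq2 (0 at an unadjusted p under 0.05), with a median of 0.59; without control replicate 1 or 3, 9 rose and 1 fell. B2M, the light chain, went from 2753, 5578 and 6519 to 21203, 22674 and 24836, with control replicate 1 the lowest (log2 fold change 2.30 ± 0.29, limma adjusted p = 3.2e-04). HLA-B stood at 6.05, 4.15 and 13.1 in the controls, far under B2M, and HLA genes are near-identical paralogs, so such values are uncertain. TAP1, PSMB8 and PSMB9 are not analysed here.

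**Figure D2:**
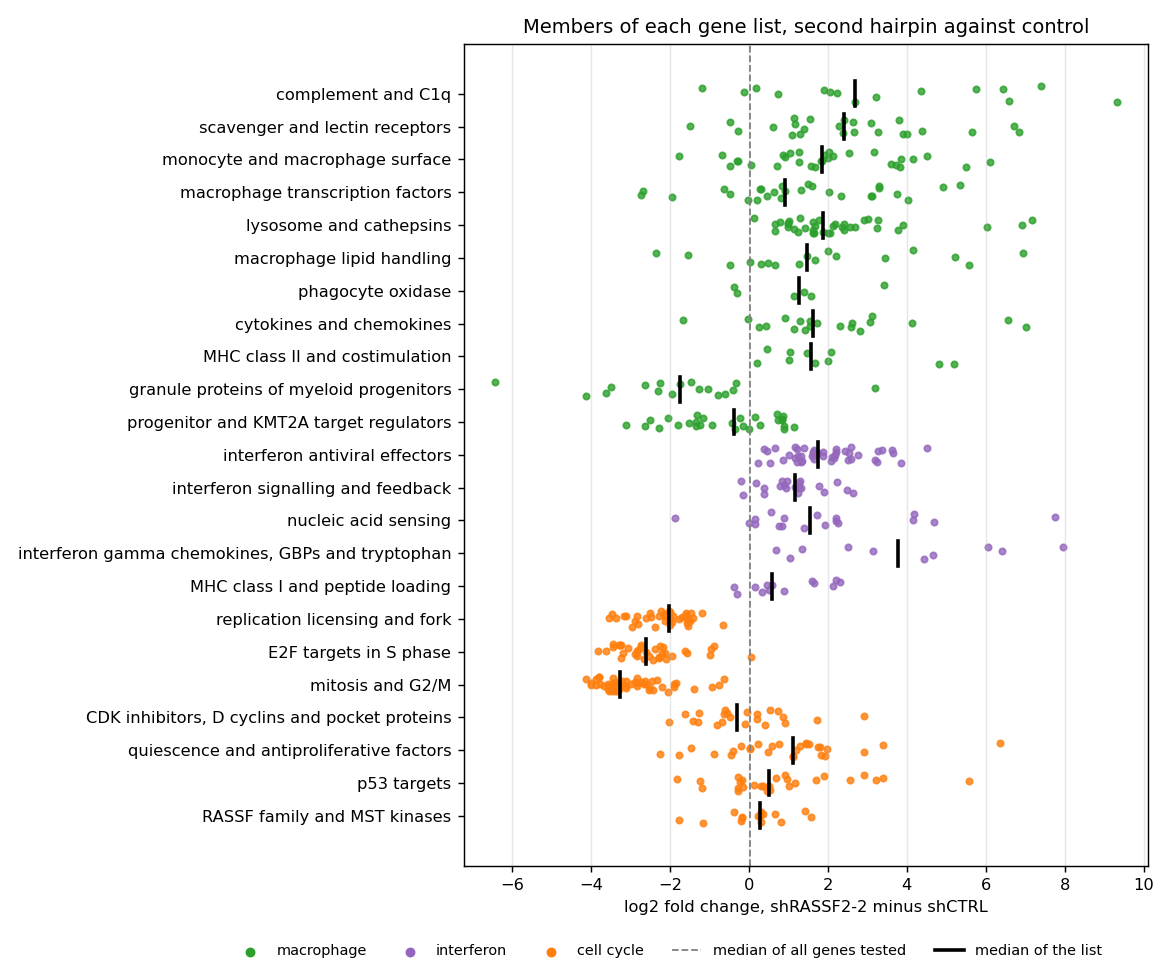
Log2 fold change of shRASSF2-2 minus shCTRL for every tested member of each gene list (a point per gene), with the list median as a black bar and the median of all genes tested as a dashed line. Lysosomal and antiviral genes lie to the right almost without exception, replication, S phase and mitosis genes lie to the left, and progenitor regulators, CDK inhibitors and p53 targets lie on both sides.

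The first hairpin did not share this rise. Both hairpins were compared with the same controls, so their values against control are given side by side and the test is of the hairpins against each other. Of the 45 antiviral genes 41 fell and 2 rose with the first hairpin, with a median of -2.14 against 1.74 with the second. The share of all genes called with the first hairpin against control is not given here, so those counts stand without a background. The second hairpin was higher than the first at 44 of the 45 and lower at 1, with a median log2 difference of 4.15, beside 31.2% higher and 28% lower over all genes tested. ISG15 stood at 171, 209 and 184 with the first hairpin (log2 difference 6.22, limma adjusted p = 2.9e-10). IFIT1 stood at 177, 163 and 189.6 with it (log2 difference 7.41, limma adjusted p = 1.7e-10). CXCL10 stood at 68.6, 68.1 and 60.8 with it (log2 difference 8.35, limma adjusted p = 6.1e-10). The controls lay between the hairpins at these 3 genes. Scaling every library to the same total, in place of the authors' size factors, moved the median difference between the hairpins by -0.39 and changed the split of all genes from 4652 higher and 4168 lower to 2910 and 6997. Under that scaling the second hairpin was still higher at 44 of the 45 antiviral genes, with a median of 3.76.

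**Figure D3:**
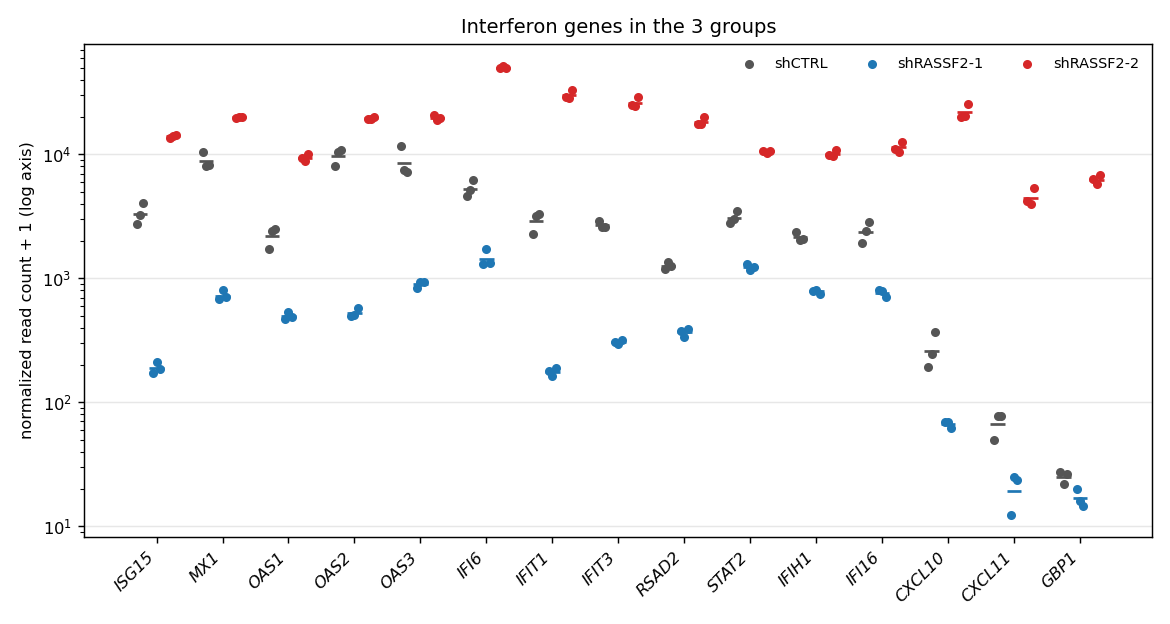
Normalized read counts plus 1 (log axis) of 15 interferon genes in the 3 groups, with a point per library and a bar at the mean on the log scale (grey shCTRL, blue shRASSF2-1, red shRASSF2-2). At every gene shown the controls lie between the first hairpin below and the second hairpin above, although GBP1 is low and close together in the controls and the first hairpin.

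Genes of DNA replication, S phase and mitosis fell almost without exception. All 38 tested genes of replication licensing and the fork fell, with a median log2 fold change of -2.02, against a background of 27.3% lower. MCM2, a subunit of the replicative helicase, fell from 4586, 3984 and 3602 to 622, 788 and 608 (log2 fold change -2.59 ± 0.14, limma adjusted p = 4.1e-06). CDT1, a licensing factor, fell from 1894, 1181 and 1089 to 107, 142 and 101 (log2 fold change -3.53 ± 0.23, limma adjusted p = 1.0e-05). PCNA, the sliding clamp, fell from 543, 997 and 1187 to 262, 319 and 286 (log2 fold change -1.58 ± 0.27, limma adjusted p = 0.0015), and its controls were less close to each other, with replicate 1 the lowest. No group overlapped at these genes. Of 35 tested E2F targets of S phase, 34 fell, E2F3 was not called, and the median was -2.61. RRM2, a subunit of ribonucleotide reductase, fell from 2206, 2086 and 2239 to 134, 199 and 203 (log2 fold change -3.62 ± 0.17, limma adjusted p = 2.5e-06). CCNE2, a cyclin of S phase entry, fell from 634, 1083 and 1266 to 128, 141 and 127 (log2 fold change -2.85 ± 0.24, limma adjusted p = 3.6e-05). E2F1 fell from 983, 864 and 894 to 113, 180.4 and 144 (log2 fold change -2.66 ± 0.18, limma adjusted p = 1.1e-05), and TYMS, TK1 and UHRF1 fell by 3.23, 3.23 and 3.26.

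Genes of mitosis had the lowest median of the lists: 57 of 57 tested fell, with a median of -3.25, and the change nearest 0 was -0.64. CCNB1, the mitotic cyclin, fell from 1783, 2671 and 2485 to 206, 259 and 197 (log2 fold change -3.37 ± 0.18, limma adjusted p = 4.1e-06). CDK1, its kinase, fell from 1366, 2458 and 2652 to 276, 402 and 345 (log2 fold change -2.62 ± 0.26, limma adjusted p = 8.1e-05). PLK1, a kinase of spindle assembly, fell from 2573, 2487 and 2528 to 219, 295 and 257 (log2 fold change -3.30 ± 0.13, limma adjusted p = 1.2e-06). Controls were above every hairpin library at all 57. MKI67, the Ki-67 proliferation marker, fell from 33763, 12711 and 10093 to 992, 1396 and 967 (log2 fold change -3.89 ± 0.41, limma adjusted p = 1.2e-04). Control replicate 1 was far above the other controls there, and without it the log2 fold change was -3.36. The largest falls were those of KIF15, a spindle kinesin (log2 fold change -4.12 ± 0.32, limma adjusted p = 2.4e-05), CENPA, the centromeric histone (log2 fold change -4.01 ± 0.20, limma adjusted p = 3.3e-06), and ASPM, a spindle pole protein (log2 fold change -4.01 ± 0.19, limma adjusted p = 2.6e-06).

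The CHR letters TTTGAA, which the DREAM complex is known to bind near the start of mitotic genes, were found on either strand in 36 of the 50 tested mitosis genes that have a RefSeq promoter (72%), against 10.2% of the 11564 tested genes with one. That share was 10.7% of genes that rose and 10.6% of genes that fell, so the motif alone did not separate the directions. E2F letters (TTTCGCGC, TTTGGCGC, TTTCCCGC or TTTGCCGC, on either strand) were found in 17 of 33 replication genes with a promoter (51.5%), against 5.17% of tested genes. They were in 3.63% of genes that rose, 7.61% of genes that fell and 4.64% of genes not called. A promoter without these letters says only that they are not in that window. The stretches below hold a CHR in CDC20, PLK1, MKI67 and KIF15 and an E2F match in MCM7 and CDT1, again as 70 bases in the direction of the gene with matches in capitals. They lie at chr1:43358886-43358955 (plus) for CDC20, chr16:23678819-23678888 (plus) for PLK1, chr10:128126424-128126493 (minus) for MKI67, chr3:44761724-44761793 (plus) for KIF15, chr7:100101398-100101467 (minus) for MCM7 and chr16:88803719-88803788 (plus) for CDT1.
CDC20: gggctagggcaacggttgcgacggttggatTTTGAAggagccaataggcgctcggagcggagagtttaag
PLK1: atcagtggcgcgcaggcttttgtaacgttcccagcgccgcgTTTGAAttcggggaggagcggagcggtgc
MKI67: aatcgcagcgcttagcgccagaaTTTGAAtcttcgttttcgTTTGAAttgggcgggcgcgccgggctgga
KIF15: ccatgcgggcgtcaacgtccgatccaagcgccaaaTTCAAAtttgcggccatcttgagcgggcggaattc
MCM7: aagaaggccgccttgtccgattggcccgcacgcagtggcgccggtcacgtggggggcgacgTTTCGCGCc
CDT1: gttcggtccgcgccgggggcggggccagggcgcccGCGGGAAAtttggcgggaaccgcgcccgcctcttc
MKI67 holds the CHR letters in a pair within this stretch. In KIF15 and CDT1 the match reads on the other strand. CDC20, an activator of the anaphase-promoting complex, fell from 10938, 12544 and 12312 to 888, 1367 and 809, and MCM7, another helicase subunit, from 5408, 5422 and 5223 to 755, 827 and 664.

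Regulators that set the decision to divide did not move as a block. Of 22 tested CDK inhibitors, D cyclins and pocket proteins, 6 rose and 10 fell, with a median of -0.29. CDKN1A, which encodes the CDK inhibitor p21, went from 1045, 958 and 1114 to 7879.5, 8184 and 7665 (log2 fold change 2.93 ± 0.09, limma adjusted p = 6.2e-07). CDKN1B, which encodes p27, rose slightly (log2 fold change 0.54 ± 0.14, limma adjusted p = 0.013) and was not called with flow cell as a term (log2 fold change 0.41, limma adjusted p = 0.15). CDKN2C, which encodes p18, fell (log2 fold change -0.57 ± 0.09, limma adjusted p = 0.0013), and CDKN2A, CDKN2B and CDKN1C were near 0 in most libraries and not tested. RB1, the retinoblastoma protein, rose from 1466, 1632 and 1629 to 2943, 2933 and 3108 (log2 fold change 0.93 ± 0.09, limma adjusted p = 7.3e-05), while the related pocket proteins RBL1 and RBL2 fell by 1.42 and 0.47. The D cyclins were not called: CCND3 stood at 4129.5, 4180.2 and 4246 in the controls and 4008, 3968 and 3718 with the hairpin, with a log2 fold change of -0.10 and a 95% interval of -0.30 to 0.09. CDK6, a partner of the D cyclins, rose (log2 fold change 0.73 ± 0.18, limma adjusted p = 0.0097), CDK4, the other partner, fell (log2 fold change -0.67 ± 0.09, limma adjusted p = 4.5e-04), and CDK2 fell (log2 fold change -1.28 ± 0.19, limma adjusted p = 7.3e-04). LIN9 and TFDP1, subunits of the complexes that act on cell cycle promoters, fell by 2.03 and 1.61.

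**Figure D4:**
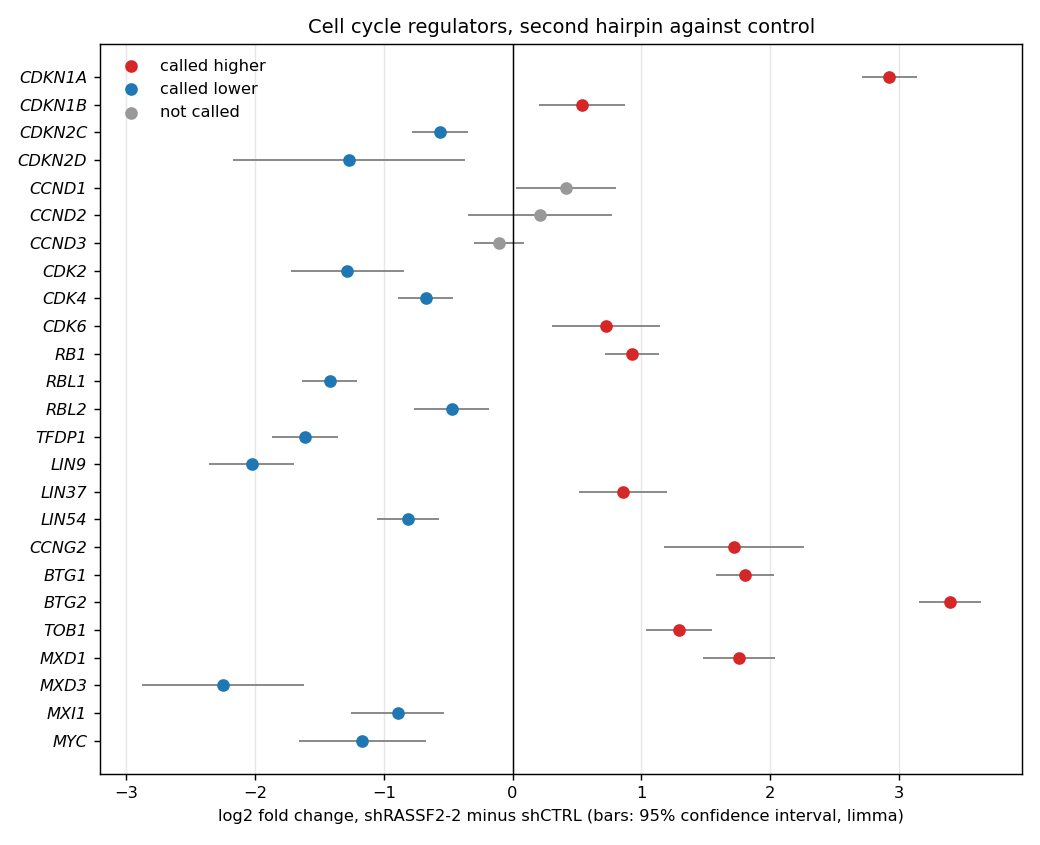
Log2 fold change of shRASSF2-2 minus shCTRL with its 95% confidence interval (limma) for 25 regulators of the cell cycle (red called higher, blue called lower, grey not called). CDKN1A and BTG2 lie furthest to the right and MXD3 and LIN9 furthest to the left, while the intervals of CCND2 and CCND3 span 0.

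Factors linked to quiescence and restraint of growth were more often higher than lower, with 17 of 28 higher, 4 lower and a median of 1.12. BTG2, an antiproliferative protein that p53 induces, went from 634, 778 and 747 to 7352, 7659 and 7669 (log2 fold change 3.40 ± 0.10, limma adjusted p = 5.9e-07). ZFP36L1, which destabilizes mRNAs of growth genes, went from 19.4, 45.7 and 65.6 to 3281, 3105 and 3438 (log2 fold change 6.36 ± 0.38, limma adjusted p = 6.9e-06). MXD1, an antagonist of MYC, went from 371, 291 and 310.2 to 1062, 1099.6 and 1121 (log2 fold change 1.76 ± 0.12, limma adjusted p = 1.3e-05). The groups were apart at all 3. BTG1, TOB1, FOXO3 and KLF10 rose by 1.81, 1.30, 1.18 and 1.53, whereas MXD3, MXI1, GAS1 and ZFP36L2 fell. FOXO1 was not called (log2 fold change 0.48 ± 0.24, limma adjusted p = 0.12). Of 27 tested p53 targets 13 rose and 3 fell, with a median of 0.50; without control replicate 1 the counts were 15 and 8. GDF15, a stress-induced cytokine, went from 2.42, 4.15 and 5.62 to 257, 185 and 264 (log2 fold change 5.58 ± 0.33, limma adjusted p = 6.3e-06), and reached the minimum only in hairpin libraries. SESN1 rose by 1.69, TP53INP1 by 2.56 and PHLDA3 by 1.91. MDM2, the p53 ubiquitin ligase, stood at 2601, 2879 and 2418 and 2249, 2448 and 2387 (log2 fold change -0.15 ± 0.10, limma adjusted p = 0.22) and was not called, nor were BAX, BBC3 and FAS. CDKN1A and BTG2 belong to this list too.

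The macrophage and cell cycle lists were also compared between the hairpins, again beside 31.2% higher and 28% lower over all genes. The second hairpin was higher than the first at 35 of 37 lysosomal genes and lower at 0 by limma and edgeR (0 at an unadjusted p under 0.05), at 20 and 3 of 30 surface receptors, at 16 and 3 of 24 scavenger and lectin receptors and at 13 and 3 of 17 lipid genes. MSR1 stood at 5.72, 19.4 and 8.16 with the first hairpin, GPNMB at 98.1, 406 and 152 and LPL at 83.8, 85.8 and 95.3, and the log2 differences were 7.51, 6.74 and 6.34 (limma adjusted p = 4.3e-08, 6.3e-07 and 3.5e-10). ITGAM (-0.10, limma adjusted p = 0.32) and CEBPA were not called between them. Complement was mixed, with 9 higher and 4 lower of 15, and C3 was lower with the second hairpin (-0.69, limma adjusted p = 5.5e-04). Secreted products were mixed too, with 10 higher and 5 lower of 20 and a median of 0.47, or 7 and 5 with equal totals. Progenitor regulators gave 9 higher and 8 lower of 28, macrophage transcription factors 17 and 5 of 27, and progenitor granule proteins 2 and 11 of 17. Most mitosis genes fell with both hairpins against the shared controls: of the 57 tested the first hairpin lowered 56, with a median of -1.69 against -3.25. A share of all genes called with the first hairpin against control is not given beside that count. The second hairpin was lower than the first at 53 of the 57 mitosis genes and higher at 1, at 29 and 1 of 38 replication genes, and at 21 and 2 of 35 E2F targets. CDKN1A stood at 372, 429.7 and 384 with the first hairpin, below the controls (log2 difference 4.32, limma adjusted p = 2.8e-10). Scaled to equal totals, the libraries gave 29 higher and 0 lower for lysosomal genes, 1 and 55 for mitosis and 0 and 34 for replication. The background for these counts is 2910 higher and 6997 lower of all 14894 genes tested, which leans to lower.

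**Figure D5:**
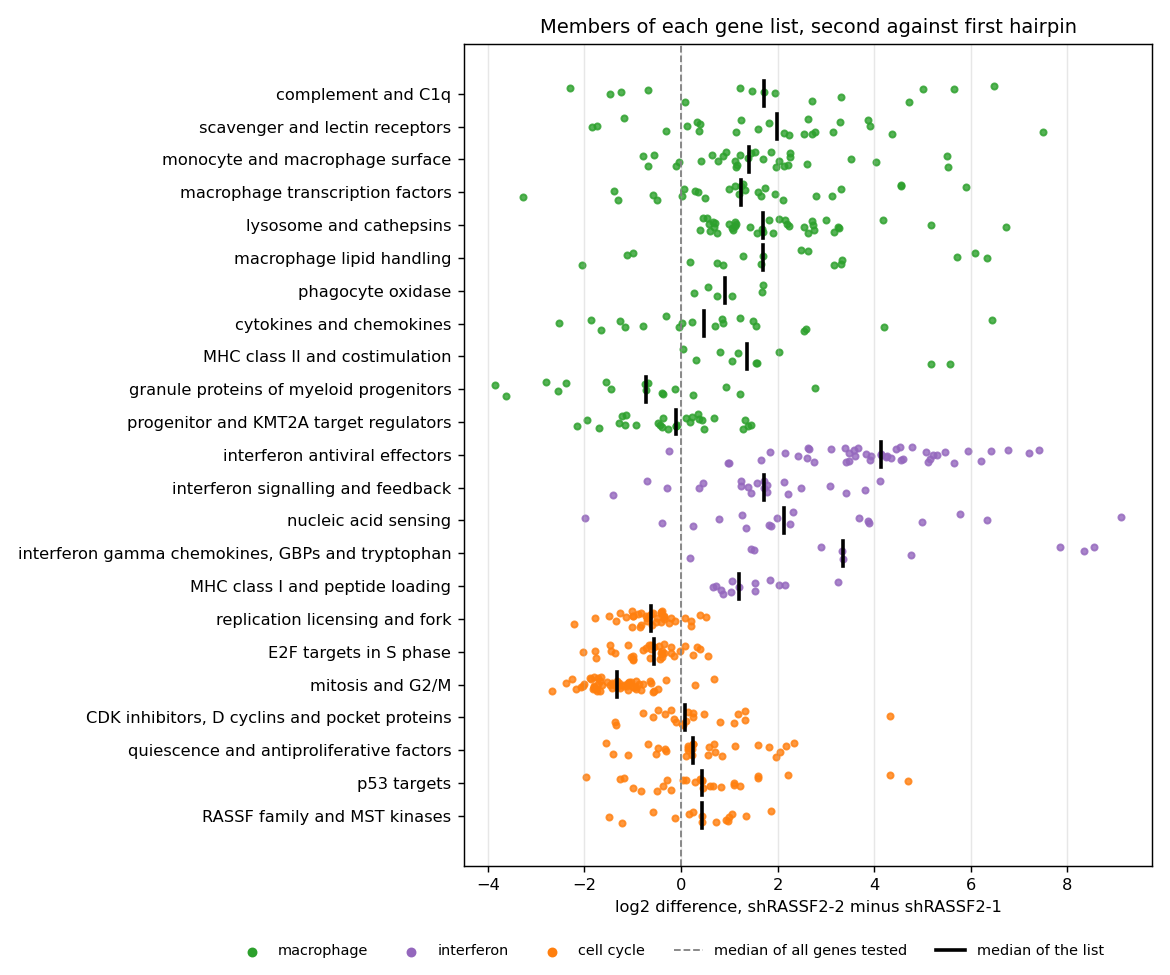
Log2 difference of shRASSF2-2 minus shRASSF2-1 for every tested member of each gene list (a point per gene), with the list median as a black bar and the median of all genes tested as a dashed line. Antiviral genes lie furthest to the right with a median of 4.15, lysosomal genes lie to the right of 0, and mitosis genes lie to the left with a median of -1.33.

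Markers of cell types other than THP-1 cells were counted in the same libraries. CD3E, CD3G, CD2 and CD8A, markers of T cells, were at or near 0, with at most 12.1 normalized reads in any library. NKG7 was the only tested T and NK marker, and fell from 105, 125 and 107 to 38.5, 27.2 and 19.8. Of 4 tested B cell markers 2 rose, PAX5 and FCRL1, FCRL1 not when any of 4 libraries was left out, 1 fell, and CD79B was not called, while CD79A, which defines the lineage, was not tested. The 1 tested erythroid marker, KLF1, was not called, although it was called higher without control replicate 1. Of the 3 tested megakaryocyte markers limma called 0 (1 lower at an unadjusted p under 0.05 and 1 lower by DESeq2). Epithelial markers rose at 5 of 5 tested genes, and their summed level was 20.6 to 734 in the controls and 1582 to 1965 with the hairpin. KRT18 stood at 0, 0.830 and 156 in the controls and 239, 222 and 127 with the hairpin, and FCGBP at 3.63, 2.49 and 331 and 955, 935 and 1545. Control replicate 3, the control on the hairpin libraries' flow cell, carried these transcripts, and controls 1 and 2 were near 0. With flow cell as a term 1 of the 5 was called, as when control replicate 2 or hairpin replicate 2 was left out. DESeq2 called 0 of them, with no adjusted p for KRT18, and edgeR 3. EPCAM and CDH1, which define epithelium, did not reach the minimum. SPARC and CDH5 had the same pattern among 8 tested stromal and endothelial markers, of which 3 rose and 2 fell, or 1 and 0 with flow cell as a term. Without control replicate 3, 5 rose, and without hairpin replicate 3, 1 rose; COL1A2 was at 0 in every control. The part of these transcripts in the results was not tested. Of the 304 named genes that were called, 266 stayed called in every alternative that gave them an adjusted p.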

How the data were processed

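Poly(A) RNA of THP-1 cells was sequenced in 3 libraries per group; groups were taken from the sample labels. The tools named in the submitters' processing notes are DESeq2 1.18.1, featureCounts 1.6.2, HISAT2 2.1.0 and Picard, on genome build hg38; their roles and the annotation are not given. What the authors deposited is a normalized signal per gene, since 100% of values in each library were whole multiples, within 0.001, of the value of 1 read; they are gene counts divided by a size factor, and reads were recovered from them. The authors' log2 fold change and adjusted p-value columns were not used.

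Genes that reached a value of 10 in 3 or more of the 6 libraries were tested with limma-trend 3.58.1 (R 4.3.3) on log2(value + 1), a pseudocount of 1, with group as the only term. Hairpins were compared with each other in a fit of all 9 libraries. Depth was 13.9 to 20.1 M reads per library in the second hairpin and control groups and 13.3 to 14.2 M with the first hairpin, and the number of libraries limits precision. Scripts were tested on simulated data. Alternatives were edgeR 4.0.16 and DESeq2 1.42.0 on recovered reads, scaling by total reads, pseudocounts of 0.1 and 5, no filter, a filter of 1 CPM, all 9 libraries, flow cell as a term or the 4 libraries from one flow cell, the replicate number as a block, and each library left out.

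Members and the 31 gene lists (699 entries, 584 genes tested) were chosen with earlier results of these data known. Named genes are RASSF2, the 10 highest and 10 lowest called genes whose mean reached 100, index genes of each list, and up to 5 further called members per list with a mean of at least 50; others named are list members given as counted. Lists are described by counts and medians, with no test of a list. For 22 genes the symbol had become a date and was taken from the identifier, and 195 genes without a symbol, with 0.0507% to 0.0601% of reads in the 6 libraries, stayed in the tests. Promoters and positions are from RefSeq on GRCh38.p14, with 18250 genes matched by identifier and a promoter for 11564 of the tested genes. No per-sample column was left unused. Some genes that enter the counts are not reported here by name.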

Additional observations from a re-analysis of the deposited data

Results flagged for a closer look

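At 25 of the list genes fixed as index genes and reported here the hairpins moved in opposite directions against the shared controls, each by at least 2-fold, and differed in the direct limma test of the second against the first hairpin. The difference itself uses no control value, but control values decided which genes are listed, and the controls enter that fit's estimate of the spread. The listed differences are thus not independent of the controls. How many index genes the rule was applied to is not given here. The values below are log2 differences, second minus first hairpin.

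Most are interferon genes. The antiviral effectors were higher by 6.22 for ISG15, 7.41 for IFIT1, 6.42 for IFIT3, 5.64 for RSAD2, 5.12 for IFI6, 4.54 for IFITM3 and 4.15 for IFI44, with 4.77 for MX1 and 4.24, 5.22 and 4.45 for OAS1, OAS2 and OAS3. Signalling genes differed by 3.10 for STAT2 and 2.48 for IRF7. Among sensors the difference was 3.68 for IFIH1, 6.34 for AIM2 and 3.90 for IFI16. The chemokines CXCL10 and CXCL11 differed by 8.35 and 7.85.

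The macrophage genes were MSR1 with 7.51, LPL with 6.34, EGR2 with 4.55, FABP5 with 3.33, SIGLEC1 with 2.63 and TREM2 with 2.24. CDKN1A, which encodes p21, differed by 4.32. Scaling by total reads moves the median gene by -0.39. All 25 differences exceed that size by selection, since each hairpin had to move by at least 2-fold in opposite directions. Their size is therefore no test of the scaling.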

How the results depend on the processing

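Counts of genes called with the second hairpin against control, 4418 higher and 4066 lower, were 4246 and 4236 with edgeR, 4304 and 4345 with DESeq2, 4298 and 4106 with scaling by total reads, 3247 and 2920 with flow cell as a term, and 3520 to 5408 and 3313 to 5025 when a library was left out, highest without control replicate 1. Between the hairpins, scaling by total reads gave 2910 higher and 6997 lower in place of 4652 and 4168, with the median gene moved by -0.39. Same-numbered replicates of the groups had correlations of 0.057, -0.006 and 0.110, and different-numbered ones had -0.107 to 0.049. With 3 libraries a group these values cannot decide whether the samples were paired. The replicate block gave 4353 higher and 4000 lower. RASSF2 stayed called lower in every alternative. Of 318 tested named genes none that was called changed direction; flow cell as a term ended 29 calls, among them CEBPA, ABCA1, IL1B, ELANE, HOXA9, BST2 and CDKN1B, and the cause was not tested. With 2 control libraries on their own flow cell, that term rests on control replicate 3 alone. Genes near the minimum of 10 hold few reads, which limits their folds.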
